A study of Mus musculus with 6 samples.

Results

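Major histocompatibility complex (MHC) class II presentation genes were followed in cultured mouse erythroblasts exposed to NUP-17d, an inhibitor of the membrane-associated protein Plek2. The 7 genes H2-Aa, H2-Ab1, H2-Eb1, H2-DMa, H2-DMb1, Cd74, and Ciita were chosen by name, with earlier results of these data known. All 7 were found among the 17060 genes listed in at least 1 culture. BM cells of WT mice (C57BL/6 in the study's drug-screening work) were depleted of lineage-positive cells and placed in EPO-containing medium, which drives erythroid growth, and either DMSO (vehicle) or 10 μM NUP-17d, a mixture of stereoisomers, was present from the beginning for 48 hours. Each condition had 3 cultures, and their RNA was sequenced after poly(A) selection. Neither the labels nor the methods say whether the cultures came from separate animals, so the p-values measure only the spread between these cultures, which may be technical.

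MHC class II molecules are pairs of an α and a β chain that display peptides from endosomes to CD4+ T cells, and they are characteristic of B cells, dendritic cells, and macrophages rather than of red cell precursors. Newly made class II pairs are chaperoned by the invariant chain (Cd74), and the nonclassical pair H2-DM then exchanges the invariant chain remnant for antigenic peptide. Ciita is known to drive transcription of these genes, though not all of them depend on it strictly. It is a co-activator that binds no DNA itself and is recruited by the RFX, CREB, and NF-Y factors sitting on the X and Y boxes of class II promoters.

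The cultures were of nearly equal depth, with 20278433 to 20419018 expected counts per DMSO culture and 20076409 to 20170197 per NUP-17d culture. Their composition was not equal. Hemoglobin genes took 18.3% to 20.3% of the counts in DMSO and 11.8% to 13.1% in NUP-17d, and all 16 tested erythroid markers were called lower with NUP-17d (14 of 16 when libraries were scaled by their totals alone). Libraries were therefore scaled by TMM, a factor that aligns the bulk of genes, and levels are given as TMM-scaled CPM (each gene's counts relative to the scaled library total). The median log2 fold change of the 12306 tested genes was 0.01 after TMM and 0.28 with library totals only, so a direction that rests on a small change depends on this choice and is marked as such. In bulk RNA, fewer cells of a type cannot be told apart from less RNA per cell.

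Of the 7 genes, 6 were lower with NUP-17d, namely the 3 classical chains, Cd74, Ciita, and, by a smaller amount, H2-DMb1, at an adjusted p under 0.05 in edgeR's quasi-likelihood test. H2-DMa did not pass. Across all 12306 tested genes, 18.9% were called lower, 16.4% higher, and 35.3% in either direction. The 7 genes were chosen with earlier results known, so the contrast with these shares is no test of the set. The median log2 fold change of the 7 genes was -0.61. Vehicle and treated cultures were fully separated in CPM for 6 of the 7 genes (all but H2-DMb1), and the same was true of 46.0% of all tested genes.

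**Figure D1:**
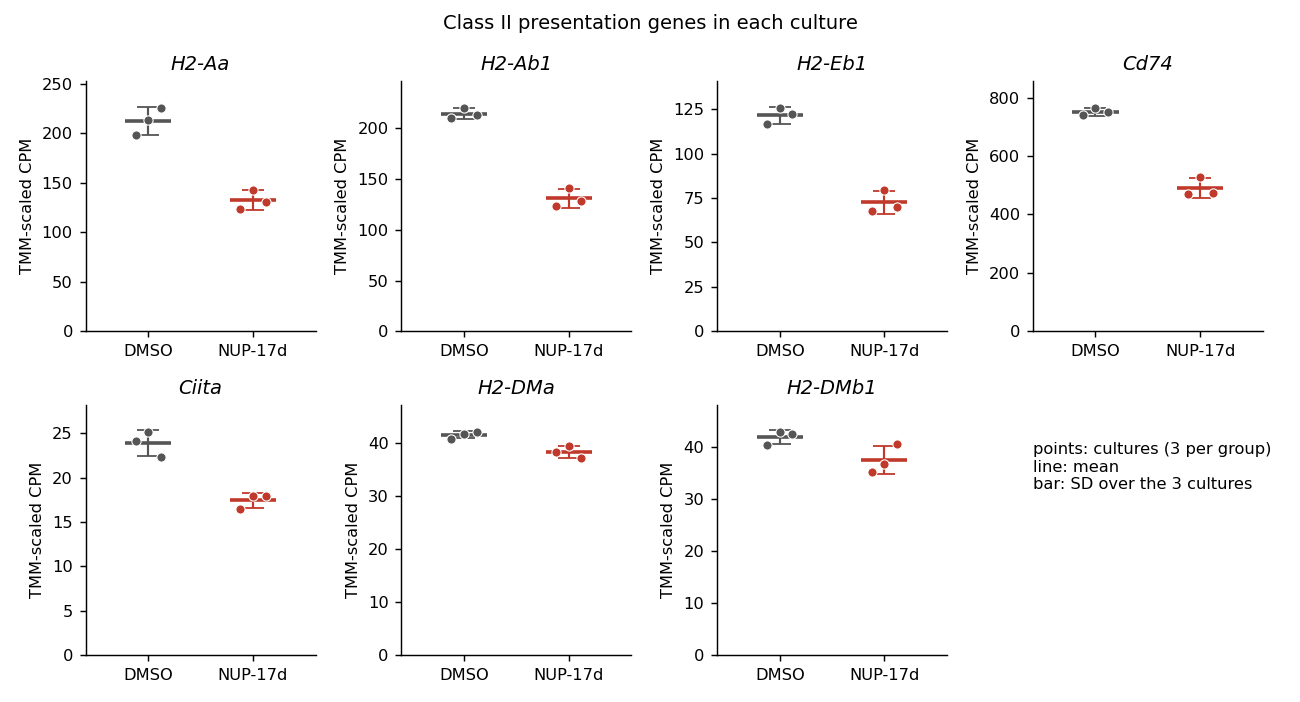
TMM-scaled CPM (y axes, each from 0) of the 7 class II presentation genes in the 3 DMSO and the 3 NUP-17d cultures, with points for cultures, a line for the mean, and a bar for the SD. H2-Aa, H2-Ab1, H2-Eb1, Cd74, and Ciita separate fully, with H2-Aa at 198 to 226 against 124 to 143. H2-DMa separates by a narrow gap, at 40.8 to 42.2 against 37.2 to 39.4, and H2-DMb1 overlaps.

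The classical chains H2-Aa (α chain of I-A), H2-Ab1 (β chain of I-A), and H2-Eb1 (β chain of I-E) fell together. H2-Aa (gene ID 14960) was read at 198, 214, and 226 CPM in the DMSO cultures and at 124, 143, and 131 CPM in the NUP-17d cultures. Every treated culture lay below every vehicle culture. The mean went from 213 ± 13.8 to 132 ± 9.91 CPM (SD, n = 3 each), a log2 fold change of -0.68 ± 0.047 (SE, with edgeR adjusted p = 5.77e-12), so that the level fell by 37.7%. Only 2.15% of the tested genes, 265 in number, had a log2 fold change as low as or lower than that of H2-Aa.

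H2-Ab1 (gene ID 14961), the partner chain of H2-Aa, stood at 210, 220, and 213 CPM in DMSO and at 124, 141, and 128 CPM in NUP-17d. The groups again did not overlap. The log2 fold change was -0.71 ± 0.042 (SE, with edgeR adjusted p = 2.12e-13), and the level fell by 38.9%. In both conditions the transcripts of the 2 I-A chains remained in nearly the same proportion: the ratio of H2-Ab1 to H2-Aa in FPKM, the authors' length-scaled level, was 0.916 ± 0.0550 in DMSO and 0.896 ± 0.00891 in NUP-17d (SD, n = 3 each), with overlapping cultures.

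H2-Eb1 (gene ID 14969) was measured at 117, 126, and 122 CPM in DMSO and at 67.7, 79.7, and 70.2 CPM in NUP-17d. The groups did not overlap. It showed the lowest log2 fold change of the 7 genes, -0.74 ± 0.048 (SE, with edgeR adjusted p = 1.31e-12), and its level fell by 40.3%. C57BL/6 mice are known to make no E α chain, so that H2-Eb1 transcripts in this strain have no partner at the cell surface. H2-Ea, sought by name, was listed in none of the cultures. The ratio of H2-Eb1 to H2-Aa in FPKM was 0.368 ± 0.0173 in DMSO and 0.351 ± 0.00600 in NUP-17d (SD, n = 3 each), and the cultures overlapped. Expected counts of H2-Ab1 and H2-Eb1 were not whole numbers in every culture, which shows that a part of their reads was shared with similar genes. H2-Aa had whole counts in all 6 cultures and gave nearly the same fold change.

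The promoters of H2-Aa and H2-Eb1, whose transcripts moved together, and of H2-DMb1, whose transcript moved less, are shown for comparison from 110 to 41 bases before the RefSeq start (GRCm38.p6, 5′ to 3′ on the gene's strand). The motifs were chosen after the values were seen. Capitals mark Y box letters (CTGATTGG, or GATTGG alone where the longer form is absent) and a short string from some X boxes (ACNGATG).
H2-Aa, chr17:34287864-34287933, minus strand: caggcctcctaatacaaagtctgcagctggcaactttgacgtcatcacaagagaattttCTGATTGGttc
H2-Eb1, chr17:34305757-34305826, plus strand: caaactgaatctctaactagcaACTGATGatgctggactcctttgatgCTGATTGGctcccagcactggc
H2-DMb1, chr17:34153081-34153150, plus strand: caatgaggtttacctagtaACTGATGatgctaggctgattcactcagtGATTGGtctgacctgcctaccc

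In H2-Aa the letters CTGATTGG began 51 bases before the start, and in H2-Eb1 they began 62 bases before it. H2-DMb1 held only the shorter GATTGG, also 62 bases before the start. The letters did not sort with the calls over further class II genes. H2-Oa and H2-Eb2, which were not called, held CTGATTGG 46 and 103 bases before the start and ACNGATG 137 and 129 bases before it. H2-Oa had a log2 fold change of -0.11 ± 0.147 (SE). H2-Eb2, at 0.807 CPM in DMSO, had one of -0.19 ± 0.295 (SE), too uncertain to tell a fall like that of H2-Eb1 from no change. The letters ACNGATG lay 88 bases before the start in H2-Eb1 and 91 in H2-DMb1, and in H2-Aa they matched only on the opposite strand, 232 bases before the start. X boxes vary in sequence, so the lack of this string in the printed H2-Aa stretch does not mean that an X box is missing there. On either strand, CTGATTGG was found in 4.1% of all 32851 RefSeq windows of 300 bases, GATTGG (which every CTGATTGG contains) in 16.1%, and ACNGATG in 9.85%. For matches on the gene strand that began 120 to 40 bases before the start, these shares were 1.07%, 3.91%, and 1.46%. GATTGG and ACNGATG occurred there together in 0.0609%. Among class I genes called higher, B2m held GATTGG 54 bases before the start and H2-D1 held ACNGATG 106 bases before it. Of the 2 windows of H2-DMa, 1 held GATTGG 199 bases before its start, and the other held none of these letters. Such matches describe the sequence alone. H2-Ab1, Cd74, and Ciita had no entry in the promoter table.

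Cd74 (gene ID 16149), the invariant chain that occupies the groove of new class II molecules, was by far the most abundant of the 7 transcripts. It was read at 739, 765, and 749 CPM in DMSO and at 470, 530, and 472 CPM in NUP-17d. No treated culture reached the lowest vehicle culture. The log2 fold change was -0.61 ± 0.040 (SE, with edgeR adjusted p = 2.04e-12), and the level fell by 34.7%. Cd74 took 53.4% ± 0.561 of the counts of the 7 genes in DMSO and 53.3% ± 0.570 in NUP-17d (SD, n = 3 each), with overlapping cultures. The sum of the 7 genes ranged from 1369 to 1434 CPM in DMSO and from 875 to 988 CPM in NUP-17d. As an unscaled share of each library, that sum was 0.128% ± 0.00623 of the counts in DMSO and 0.101% ± 0.00726 in NUP-17d (SD, n = 3 each), and the groups did not overlap on that scale either.

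Ciita (gene ID 12265), the co-activator on which class II transcription depends, was the scarcest of the 7. It was read at 24.1, 25.2, and 22.3 CPM in DMSO and at 16.5, 17.9, and 17.97 CPM in NUP-17d. The groups did not overlap. The log2 fold change was -0.45 ± 0.064 (SE, with edgeR adjusted p = 2.90e-06), and the level fell by 26.9%. With library totals in place of TMM the log2 fold change was -0.19 (edgeR, adjusted p = 0.0184), and in limma fits of the deposited FPKM values it was -0.15 and -0.19 (adjusted p = 0.0655 and 0.0632), past the threshold in neither. Counts of the 3 classical chains per Ciita count were 23.1 ± 1.85 in DMSO and 19.3 ± 1.03 in NUP-17d (SD, n = 3 each), without overlap. The span of Ciita overlaps that of Dexi by 858 bases at its end, and its counts were whole in all 6 cultures.

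The chains of the peptide exchange pair H2-DM differed less between the conditions. H2-DMa (gene ID 14998), the α chain of H2-DM, was read at 40.8, 41.6, and 42.2 CPM in DMSO and at 38.4, 39.4, and 37.2 CPM in NUP-17d. These groups lay close together without overlapping. The log2 fold change was -0.12 ± 0.047 (SE, with edgeR adjusted p = 0.0529), which did not pass the threshold. The sign turned with library totals only, to 0.15 (edgeR, adjusted p = 0.0143). The RefSeq span of H2-DMa also overlaps that of Brd2 by 3122 bases, and its counts were whole in all 6 cultures.

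H2-DMb1 (gene ID 14999), the β chain of H2-DM, was read at 40.4, 43.0, and 42.4 CPM in DMSO and at 35.3, 36.7, and 40.5 CPM in NUP-17d. The highest treated culture lay just above the lowest vehicle culture. The log2 fold change was -0.16 ± 0.052 (SE, with edgeR adjusted p = 0.0164), and it turned to 0.10 with library totals only (edgeR, adjusted p = 0.104). The call was lost when DMSO culture 2 or 3 or NUP-17d culture 1 or 2 was left out (edgeR, adjusted p = 0.0727, 0.0593, 0.0963, and 0.0576), and it held without DMSO culture 1 or NUP-17d culture 3 (0.0157 and 0.00199). It was lost in DESeq2 as well (adjusted p = 0.0787). The calls of the 3 classical chains, Cd74, and Ciita held in each fit that left out 1 culture. Some counts of H2-DMb1 were not whole, and reads shared with its near copy H2-DMb2 make its value less certain.

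Because a ratio of genes within a culture needs no scaling between libraries, the H2-DM chains were also set against the classical chains directly. For every 100 counts of H2-Aa, H2-Ab1, and H2-Eb1 together, there were 15.5, 15.1, and 15.1 counts of H2-DMa and H2-DMb1 together in the DMSO cultures and 23.4, 20.9, and 23.6 in the NUP-17d cultures. The groups did not overlap, and the ratio of their means was 1.49. The same ratio in FPKM was 0.128 ± 0.00194 in DMSO and 0.189 ± 0.0131 in NUP-17d (SD, n = 3 each). An exact permutation test of 3 against 3 cultures cannot go below p = 0.1, so the separation is given as a description. The ratio of H2-DMb1 to H2-DMa itself was 1.31 ± 0.0274 in DMSO and 1.27 ± 0.123 in NUP-17d in FPKM (SD, n = 3 each), with overlapping cultures.

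**Figure D2:**
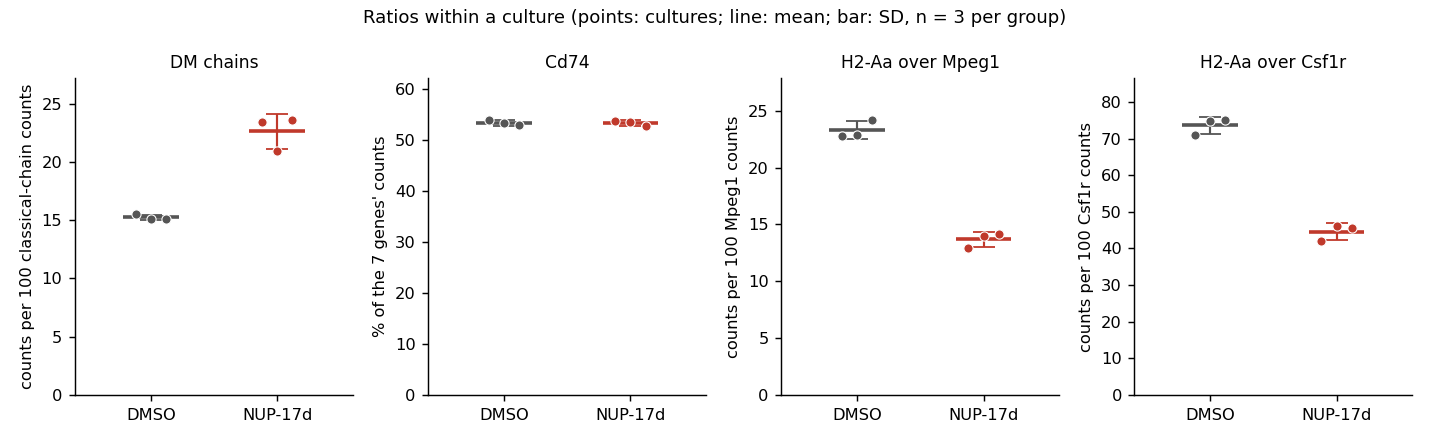
Ratios within each culture (y axes, from 0; units on each axis) for the 3 DMSO and 3 NUP-17d cultures, with points for cultures, a line for the mean, and a bar for the SD. The H2-DM chains lie at 15.1 to 15.5 counts per 100 classical counts in DMSO and at 20.9 to 23.6 in NUP-17d, the Cd74 share lies between 52.7% and 54.0% in all 6 cultures, and H2-Aa is lower in NUP-17d against Mpeg1 and Csf1r, 2 of 16 monocyte and macrophage markers, chosen after their values were seen.

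On the length-scaled FPKM scale the order of levels was the same in both conditions. In DMSO, Cd74 stood at 538 ± 22.2 FPKM, H2-Aa at 180.4 ± 15.3, H2-Ab1 at 165 ± 7.98, H2-Eb1 at 66.2 ± 4.19, H2-DMb1 at 29.9 ± 1.70, H2-DMa at 22.8 ± 0.889, and Ciita at 4.03 ± 0.302 (SD, n = 3 each). H2-Aa and H2-Ab1 were the only neighbors in this order whose DMSO cultures overlapped. In NUP-17d the levels were 427 ± 32.8 FPKM for Cd74, 136 ± 10.9 for H2-Aa, 121 ± 9.32 for H2-Ab1, 47.7 ± 4.48 for H2-Eb1, 32.2 ± 1.93 for H2-DMb1, 25.3 ± 1.04 for H2-DMa, and 3.53 ± 0.190 for Ciita (SD, n = 3 each). There too H2-Aa and H2-Ab1 overlapped. FPKM carries no correction for library composition, and on that scale the H2-DMa cultures were higher with NUP-17d.

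The 7 genes lie in 3 places in the genome (RefSeq, GRCm38.p6). Cd74 is on chromosome 18 (60803849 to 60812652) and Ciita on chromosome 16 (10480014 to 10531064), whereas the other 5 share the class II region of chromosome 17. There, 14 of the 15 annotated genes between H2-Oa and H2-Eb2, a stretch of 249 kb, were tested. The adjacent trio H2-Ab1 (34263227 to 34269418), H2-Aa (34282744 to 34287823), and H2-Eb1 (34305867 to 34316674) was lower, as was H2-DMb1 (34153191 to 34160229), with the exception under library totals given above. Tap1 and Tap2, which form the peptide transporter of class I, and Psmb8, an immunoproteasome subunit, sit between H2-DMb1 and the trio and were called higher. Tap2 had a log2 fold change of 0.20 ± 0.039 (SE, with edgeR adjusted p = 0.000241), Psmb8 of 0.12 ± 0.044 (adjusted p = 0.0413), and Tap1 of 0.11 ± 0.041 (adjusted p = 0.0481). The call of Tap2 held in all 15 alternatives. Those of Psmb8 and Tap1 did not. Psmb8 lost its call without DMSO culture 1 or 2 or NUP-17d culture 1 or 3 (edgeR, adjusted p up to 0.212) and in DESeq2 (0.187). Tap1 lost it without DMSO culture 2 or 3 or any single NUP-17d culture (edgeR, adjusted p up to 0.224), with median-of-ratios factors (0.0585), with no filter on low counts (0.0549), and in DESeq2 (0.194). H2-DMa (34119693 to 34139101) and its neighbor Brd2 were not called.

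**Figure D3:**
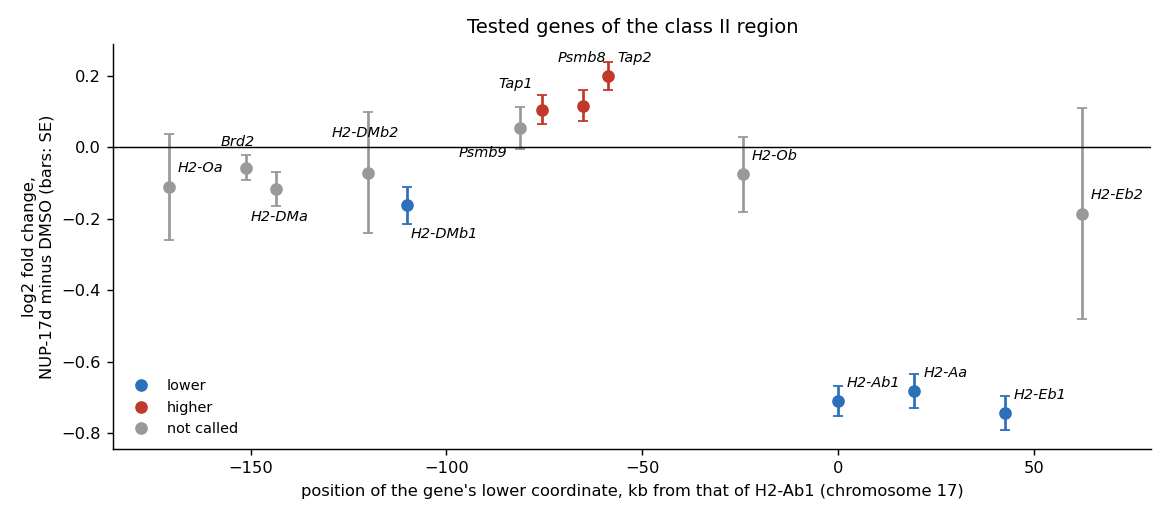
Log2 fold change, NUP-17d minus DMSO (y axis, bars SE), of the 14 tested genes of the class II region against distance in kb from H2-Ab1 (x axis), colored by the edgeR call. H2-Ab1, H2-Aa, and H2-Eb1 lie between -0.68 and -0.74, and every other gene of the stretch lies between -0.19 and 0.20.

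The other class II chains were scarce. H2-Oa and H2-Ob form H2-O, an inhibitor of H2-DM, H2-DMb2 is the second DM β gene, and H2-Eb2 is a further E β gene. Their log2 fold changes were -0.11 ± 0.147 for H2-Oa, -0.08 ± 0.105 for H2-Ob, -0.07 ± 0.168 for H2-DMb2, and -0.19 ± 0.295 for H2-Eb2 (SE). By edgeR 0 of these 4 passed, with 0 at an unadjusted p under 0.05, and DESeq2 and limma also called 0. All 4 signs were positive with library totals only. H2-Ob, the most abundant, was at 8.62 CPM in DMSO and 8.17 in NUP-17d, and H2-Eb2, the scarcest, was at 0.807 and 0.710 CPM.

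A list of 16 regulators held factors that act on class II promoters and receptor chains and kinases upstream of such factors. Of these, 3 were called higher and 3 lower, or 37.5% in either direction, close to the 35.3% of all tested genes. Their median log2 fold change was 0.01, with 0.01 over all tested genes. The lower ones were Nfyb and Nfyc, subunits of NF-Y, at -0.27 ± 0.050 (SE, with edgeR adjusted p = 9.86e-05) and -0.12 ± 0.044 (adjusted p = 0.0345), and Ifngr2, a chain of the interferon-γ receptor, at -0.15 ± 0.039 (adjusted p = 0.00473). Irf8 and Spi1, transcription factors of myeloid and dendritic cells, were higher at 0.20 ± 0.035 (SE, with edgeR adjusted p = 5.22e-05) and 0.12 ± 0.037 (adjusted p = 0.00952), and so was Ifngr1, the other receptor chain, at 0.12 ± 0.038 (adjusted p = 0.0187). The RFX subunits Rfx5, Rfxap, and Rfxank were not called, with log2 fold changes of 0.14, 0.11, and -0.02. Scaled by library totals alone, 15 of the 16 were called higher, Nfyc and Ifngr2 among them, and the call of Nfyb was lost. The call of Spi1 was also lost without DMSO culture 2 (edgeR, adjusted p = 0.0714), that of Ifngr1 without DMSO culture 1 or NUP-17d culture 2 (up to 0.110), and that of Nfyc without DMSO culture 1 or 3 or NUP-17d culture 1 or 2 (up to 0.135).

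Of 13 tested genes that cut and handle class II cargo, 7 were called higher and 3 lower, and with library totals only 11 were higher and 1 lower. Cd9, a tetraspanin found beside class II at the membrane, rose by a log2 fold change of 0.53 ± 0.041 (SE, with edgeR adjusted p = 3.95e-11), and Ctsd, a lysosomal aspartic protease, by 0.35 ± 0.041 (adjusted p = 1.18e-07). Ctss, the protease that trims the invariant chain, rose by 0.16 ± 0.051 (adjusted p = 0.0179), with overlapping cultures, and its call was lost without DMSO culture 1 or NUP-17d culture 2 (edgeR, adjusted p = 0.146 and 0.212) and in DESeq2 (0.271). The 3 lower genes were March8, a ubiquitin ligase, at -0.41 ± 0.034 (SE, with edgeR adjusted p = 1.93e-10), Lgmn, a lysosomal endopeptidase, at -0.23 ± 0.035 (adjusted p = 1.03e-05), and Ifi30, a lysosomal thiol reductase, at -0.12 ± 0.041 (adjusted p = 0.0306). Lgmn and Ifi30 changed sign with library totals only, and March8 stayed lower. The call of Ifi30 was also lost without DMSO culture 2 or 3 or NUP-17d culture 1 or 3 (edgeR, adjusted p up to 0.173). The count of higher calls in that list moved with single cultures, to 2 without DMSO culture 1 and to 2 without NUP-17d culture 2, and DESeq2 called 3 higher and 2 lower.

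Co-stimulatory genes, whose products accompany class II on antigen-presenting cells, were mostly scarce. Their summed level was 46.0 to 50.7 CPM in DMSO and 48.4 to 50.4 CPM in NUP-17d. Cd86 was at 7.14 CPM in DMSO and 5.43 in NUP-17d, a log2 fold change of -0.39 ± 0.114 (SE, with edgeR adjusted p = 0.00816), and Cd40 at 1.54 and 0.815 CPM, a log2 fold change of -0.92 ± 0.263 (adjusted p = 0.00762). Cd274, an inhibitory ligand and the most abundant of the list at 22.3 CPM in DMSO and 25.3 in NUP-17d, was higher at 0.18 ± 0.062 (SE, with edgeR adjusted p = 0.0244). The other 4 of the 7 tested, among them Cd80 at -0.47 ± 0.244 (SE), were not called. The call of Cd86 was lost without DMSO culture 2 (edgeR, adjusted p = 0.0707) and with library totals only, and that of Cd274 without DMSO culture 1 or NUP-17d culture 2 (up to 0.146). DESeq2 called 0 of the 7, with 3 at an unadjusted p under 0.05.

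Of 21 tested class I presentation genes, the group nearest in function, 11 were called higher and 2 lower, and their median log2 fold change was 0.11 (19 higher and 1 lower with library totals only, 7 and 2 in DESeq2). With a culture left out, 6 to 9 were called higher, the fewest without NUP-17d culture 3 (6) and without DMSO culture 1 (7). B2m, the light chain of class I, rose by a log2 fold change of 0.38 ± 0.037 (SE, with edgeR adjusted p = 4.82e-09), and the heavy chains H2-D1 and H2-Q4 rose by 0.33 ± 0.033 (adjusted p = 9.18e-09) and 0.51 ± 0.049 (adjusted p = 3.71e-09). H2-T23, a nonclassical heavy chain, fell by 0.36 ± 0.035 on the log2 scale (SE, with edgeR adjusted p = 7.26e-09), and Calr, an endoplasmic reticulum chaperone, fell by 0.20 ± 0.035 (adjusted p = 7.54e-05) but changed sign with library totals only. Within a culture, B2m counts per H2-Aa count were 3.59, 3.43, and 3.38 in DMSO and 7.45, 6.95, and 7.37 in NUP-17d. The groups stood far apart, with a ratio of means of 2.09. Counts of the class I heavy chains were not whole, and reads may have been divided among these near-identical genes.

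**Figure D4:**
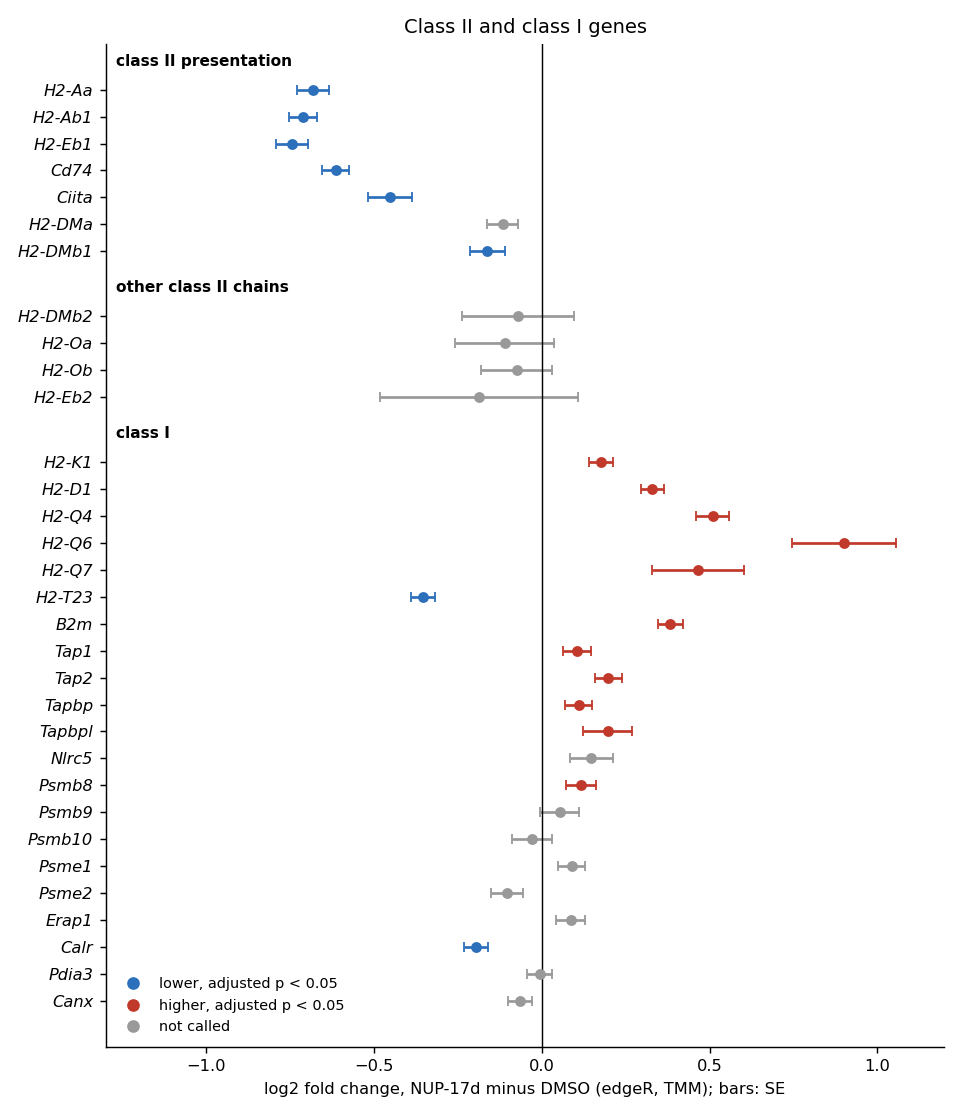
Log2 fold change, NUP-17d minus DMSO (x axis, bars SE), of the 7 class II presentation genes, the 4 other tested class II chains, and the 21 class I presentation genes, colored by the edgeR call. The classical class II chains and Cd74 lie at -0.61 or below, whereas 11 class I genes lie to the right of 0 and are called higher.

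Markers of the cells that carry class II moved in both directions. Among monocyte and macrophage markers, 4 of 16 were called higher and 5 lower, with a median log2 fold change of 0.03. Their summed level was 4645 to 4983 CPM in DMSO and 5043 to 5439 CPM in NUP-17d. Lyz2 alone made up a large part of that sum, at a mean of 2387 CPM in DMSO and 2700 CPM in NUP-17d. Mpeg1 and Csf1r, abundant markers of macrophages and monocytes, were not called, at log2 fold changes of 0.09 ± 0.040 and 0.04 ± 0.037 (SE), although both were called higher with library totals only, at 0.35 and 0.31. Mpeg1 was also called without NUP-17d culture 3 (edgeR, adjusted p = 0.0287) and with a replicate block (0.0461). H2-Aa counts per 100 Mpeg1 counts were 22.8, 22.9, and 24.2 in DMSO and 12.9, 14.0, and 14.2 in NUP-17d, and per 100 Csf1r counts they were 70.9, 74.8, and 75.2 in DMSO and 42.0, 46.2, and 45.5 in NUP-17d. In both ratios every treated culture lay below every vehicle culture. These denominators were chosen after their values were seen, so the ratio was also formed with each of the 16 markers. The treated cultures were lower without overlap for 15 of them, with ratios of means from 0.497 for Mrc1 to 0.798 for Cd14. Against C1qa, a scarce macrophage complement gene that was itself called lower, the groups overlapped and the ratio of means was 0.980. All 16 ratios share the H2-Aa counts. The higher markers were Cd68, Mrc1, Lyz2, and Ms4a7, at log2 fold changes of 0.30, 0.33, 0.18, and 0.28, and the lower ones were Adgre1, Ccr2, C1qa, Fcgr1, and Cd14, at -0.15, -0.28, -0.65, -0.31, and -0.35. With library totals only, 11 of the 16 were called higher, Adgre1 changed sign, and the other 4 lower calls were lost. Without 1 culture, the calls of Adgre1 and Fcgr1 were lost without DMSO culture 2 or 3 or NUP-17d culture 1 or 3 (edgeR, adjusted p up to 0.0946 and 0.156). Likewise C1qa lost its call without DMSO culture 2 or 3 or NUP-17d culture 1 (up to 0.0944), Cd14 without NUP-17d culture 1 (0.0548), and Mrc1 without DMSO culture 1 or NUP-17d culture 2 (up to 0.0910).

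Dendritic cell markers split. Of 13 tested, 5 were called higher and 3 lower, and their summed level was 158 to 173 CPM in DMSO and 195 to 196 CPM in NUP-17d. Clec9a, Zbtb46, and Cd209a were lower, at log2 fold changes of -0.99 ± 0.263, -0.63 ± 0.119, and -0.55 ± 0.076 (SE, with edgeR adjusted p = 0.00430, 0.000134, and 2.01e-06). Zbtb46 is a transcription factor of dendritic cells, and Clec9a and Cd209a are lectins. Clec10a, Cd7, Mgl2, Siglech, and Bst2 were higher, at 0.83, 0.61, 0.54, 0.46, and 0.20. Flt3, Itgax, Ccr7, Xcr1, and Batf3 were not called, at -0.07, 0.00, -0.02, 0.36, and 0.33. Clec9a, Xcr1, and Batf3 were scarce, at 1.47, 1.67, and 0.467 CPM in DMSO and 0.740, 2.14, and 0.588 CPM in NUP-17d. The call of Bst2 was lost without DMSO culture 2 or NUP-17d culture 2 (edgeR, adjusted p up to 0.0914). Under library totals, 8 of the 13 were higher and 3 lower.

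B cell markers were near the floor, with a summed level of 30.5 to 33.6 CPM in DMSO and 30.2 to 33.0 CPM in NUP-17d. Ms4a1 was at 1.35 CPM in DMSO and 0.423 in NUP-17d, a log2 fold change of -1.66 ± 0.312 (SE, with edgeR adjusted p = 0.000131), and Cd79a was at 4.91 and 3.79 CPM, a log2 fold change of -0.37 ± 0.137 (adjusted p = 0.0360). The other 8 of the 10 tested, among them Cd79b at 0.01, were not called. The call of Cd79a was lost without DMSO culture 1 or 3 or NUP-17d culture 1 or 2 (edgeR, adjusted p up to 0.117) and with library totals only. T and NK cell markers summed to 17.5 to 19.0 CPM in DMSO and 15.6 to 16.5 CPM in NUP-17d, without overlap, with Cd3e at 0.469 CPM in DMSO. By edgeR 0 of the 4 tested were called. The part of these cells in the class II values was not tested.

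**Figure D5:**
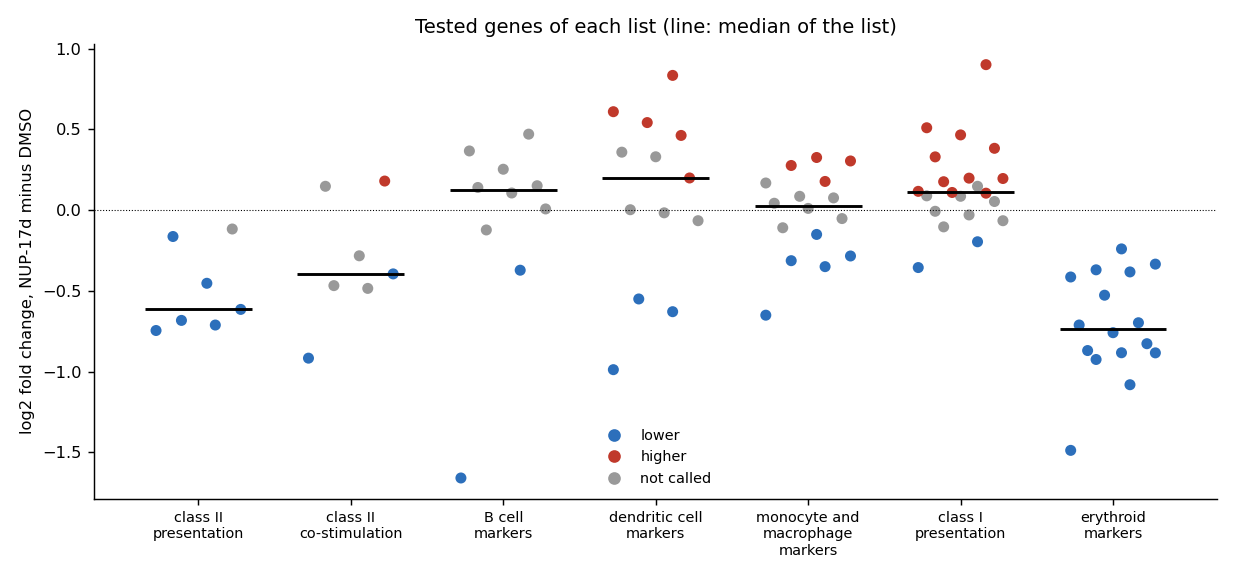
Log2 fold change, NUP-17d minus DMSO (y axis), of every tested gene of 7 lists, colored by the edgeR call, with a line at each list's median. The class II presentation genes have a median of -0.61, the B cell, dendritic cell, and monocyte and macrophage markers have medians between 0.03 and 0.20, and the erythroid markers have a median of -0.73.

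Some markers of other lineages were called as well, beside the 35.3% of all tested genes called in either direction. The megakaryocyte markers Pf4, Itga2b, Gp1bb, and Vwf were higher, eosinophil markers lower in 3 of 8 (the near-identical Ear1, Ear2, and Ear6), and mast cell and basophil markers lower in 2 of 5 (Mcpt8 and Prss34) and higher in 1 (Cpa3). Of 6 tested stem and progenitor markers, Kit and Meis1 were higher and Ly6a lower. Of 9 neutrophil markers, Ngp was higher, Camp lower, and the other 7 not called, with a median log2 fold change of -0.008 for the list. Under library totals, Camp changed sign and Mcpt8, Prss34, Ear6, and Ly6a lost their calls. Leaving out single cultures ended the calls of Itga2b (without NUP-17d culture 1, edgeR adjusted p = 0.0502), Meis1 (without DMSO culture 1 or NUP-17d culture 1, up to 0.0846), and Cpa3 (without DMSO culture 1 or 2 or NUP-17d culture 2 or 3, up to 0.207).

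Over the 6 cultures, the genes whose log2 CPM followed the mean of the 7 class II genes most closely, among 9756 candidates with a mean count of at least 100, were Hypk, Yars, Psma6, and Slc22a3, with Pearson correlations of 0.998, 0.998, 0.997, and 0.996. All 6 points carry the group difference, so these values mostly restate which genes were lower. With library totals only, Hypk had a correlation of 0.872, whereas Slc22a3, Yars, and Psma6 dropped to 0.450, -0.0328, and -0.281. After each group was centered on its mean, the closest were Tmem209, Glyr1, Itgb1, Rhbdf1, and Lztfl1, at 0.999, 0.998, 0.995, 0.992, and 0.992. These are the highest of 9756 values over 6 points, so values near 1 do not by themselves show a link. Among the 7 themselves, the highest centered correlations were 0.985 for H2-Ab1 and H2-Eb1 and 0.974 for H2-Ab1 and Cd74, with 6 cultures and shared libraries behind each. Other pairs were lower, such as H2-Aa and H2-Ab1 at 0.782 and H2-Aa and Ciita at 0.0618, down to -0.416 for H2-DMa and H2-DMb1.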

How the data were processed

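RNA-Seq tables of 6 cultures (3 DMSO, 3 NUP-17d), grouped by the treatment label, were used. For each gene the authors deposited an expected count (estimated reads, not normalized, 27.8% to 28.5% of them not whole within 0.001), an FPKM value, and a gene length. The deposited FPKM values are scaled by length and library total, with no composition correction. The build is mm10 per the submitters' processing notes, and the aligner and counting program are not given in the sources used here. The methods describe a stranded Illumina library, the labels a DNBseq library. A gene absent from a table was taken as 0.

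Expected counts were rounded and fitted over all genes with edgeR 4.0.16 in R 4.3.3 (filterByExpr, TMM, glmQLFit, glmQLFTest), and p-values were adjusted by Benjamini-Hochberg and called under 0.05. Alternatives were library totals only, median-of-ratios factors, DESeq2 1.42.0, no filter, a mean count of at least 50, removal of hemoglobin genes, limma 3.58.1 on log2-transformed FPKM with a pseudocount of 1 or 0.1 at a mean FPKM of at least 0.1, a replicate block, and each culture left out. Scripts were tested on simulated data.

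The 7 genes and all lists were chosen with earlier results of these data known. Outside the 7, every further class II chain, the 4 genes with the lowest p-values of each pathway list, any gene behind a count of 5 or fewer, and the 5 genes most like the 7 are named, except for some items that are not reported here. Csf1r, Mpeg1, the RFX subunits, Flt3, Itgax, Ccr7, Xcr1, Batf3, Cd79b, Cd80, Cd3e, Ctss, Psmb8, Tap1, and Brd2 were named after their values were seen. Gene positions and promoter sequences are from RefSeq on GRCm38.p6. The promoter table matched 4 of the 7. Same-numbered cultures did not deviate together (correlations of -0.0324 to 0.0335), so the numbers were not used to pair them.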

Additional observations from a re-analysis of the deposited data

How the results depend on the processing

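The log2 fold changes of H2-Aa, H2-Ab1, H2-Eb1, and Cd74 stayed below 0 and past the threshold in all 15 alternatives. Relative to the median of all genes, H2-Aa stood at -0.70, H2-Ab1 at -0.73, H2-Eb1 at -0.76, Cd74 at -0.63, Ciita at -0.47, H2-DMb1 at -0.18, and H2-DMa at -0.13, values that a change of scaling leaves nearly as they are by construction. Signs turned in 3 fits without a composition correction. Scaling by library totals gave log2 fold changes of 0.15 for H2-DMa, 0.10 for H2-DMb1, 0.079 for H2-Eb2, 0.20 for H2-DMb2, 0.16 for H2-Oa, 0.19 for H2-Ob, 0.12 for Ifngr2, 0.042 for Lgmn, 0.15 for Nfyc, 0.15 for Ifi30, 0.072 for Calr, 0.12 for Adgre1, and 0.10 for Camp. In limma on log2(FPKM + 0.1) the same 13 genes, in that order, gave 0.15, 0.11, 0.057, 0.20, 0.16, 0.19, 0.13, 0.046, 0.15, 0.16, 0.076, 0.12, and 0.10, and on log2(FPKM + 1) they gave 0.15, 0.10, 0.016, 0.16, 0.13, 0.15, 0.12, 0.045, 0.15, 0.15, 0.076, 0.12, and 0.10. H2-Ob turned to 0.042 without DMSO culture 1, and H2-DMb2 to 0.057 without DMSO culture 3 and to 0.0045 without NUP-17d culture 3. H2-DMa was called with median-of-ratios factors (-0.12, adjusted p = 0.0451), H2-DMb1 was not called in DESeq2 (-0.17), and Ciita was not called in limma (-0.15 and -0.19). Leaving out each culture gave -0.22 to -0.12 for H2-DMb1. The log2 ratio of the summed class II share, -0.61 with TMM, was -0.35 with library totals and -0.46 with totals that leave out hemoglobin genes, which changes the scaling as well, and -0.67 to -0.58 with a culture left out. Among the other class II genes of the regulator, processing, co-stimulation, and chain lists 19 were called (11 higher, 8 lower), against 30 (28 and 2) with library totals and in both limma fits, 9 (5 and 4) in DESeq2, and 11 to 19 with a culture left out (11 without DMSO culture 1 and without NUP-17d culture 2). Class I calls went from 13 (11 and 2) to 20 (19 and 1) with library totals and in both limma fits, and to 9 to 11 with a culture left out. Marker calls were 51 (18 higher, 33 lower), against 67 (47 and 20) with library totals and 70 in limma. Over all genes 4346 calls became 9115 (8458 higher, 657 lower) with library totals, 8981 (8331 and 650) in limma on log2(FPKM + 1), and 8944 (8291 and 653) on log2(FPKM + 0.1). A replicate block gave 4543 calls over all genes (2121 higher, 2422 lower) and changed no call among the 7 genes (H2-DMb1 -0.16, adjusted p = 0.00807). The ratio of H2-DM to classical chains, an alternative chosen after seeing the data, was 0.57 on the log2 scale in counts and in FPKM, and 0.54 to 0.63 with a culture left out. Depth limits H2-Eb2, Cd40, Cd80, Clec9a, and Ms4a1, each near 1 CPM. The cause of these changes was not tested.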

Other observations

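The mean transcript length that the authors deposited for Cd74, which names 2 transcripts, was 1276.0, 1277.9, and 1275.1 bases in DMSO and 1270.5, 1270.8, and 1269.8 bases in NUP-17d. The groups did not overlap, but the difference was small, with a ratio of means of 0.995. How many other genes separate in this length was not counted. Among 10880 genes with 1 named transcript this length never varied between cultures, whereas it varied in 5115 of 6180 genes with several, so it follows the estimated mix of transcripts. The length of Ciita, with 5 named transcripts, overlapped between groups.

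After each group was centered on its mean, H2-DMa and H2-DMb1, whose products pair with each other, had a Pearson correlation of -0.416 over the 6 cultures, whereas H2-Eb1 and Cd74 had one of 0.968. Both are descriptions over few points that share their libraries.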
